A study of Mus musculus with 8 samples.

Results

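Spiral ganglion neurons carry the signals of the cochlear hair cells to the brainstem, and 35 genes that mark these neurons or serve their axons, synapses and firing were followed in cochlear RNA of mice that have miR-29a (WT) or lack it (KO). The members were all rows of the deposited expression table that bear the names of these 35 genes, out of 21895 genes in all. With all 4 libraries a group, none of the 35 genes passed the test for a difference between KO and WT, beside 5.12% of all tested genes at the same unadjusted threshold. The KO values overlapped the WT values for every one of the 35, and were fully separated from them for 3.5% of all tested genes. The library WT1 held the lowest value of all 8 libraries for 31 of the 35 genes. It was also lowest for 29 of 35 other neuronal genes and 9 of 12 hair cell genes. For 11 marrow genes, by contrast, the summed FPKM was 634% of the mean of WT2 to WT4 in WT1 and 413% in the KO mean. How often WT1 was lowest over all genes was not counted. Without WT1, 10 of the 35 genes were lower in KO mice at an unadjusted p under 0.05, beside 7.4% of all tested genes, and none passed adjustment over all genes. Leaving out the lowest library raises the WT mean of these genes, so the lower direction was favoured in advance. Leaving out any other single library gave 0 calls. Among the 10 genes lower without WT1 were the vesicular glutamate transporter gene Slc17a7, the neurotrophin receptor genes Ntrk2 and Ntrk3 and 4 genes of transmitter release. With the libraries also scaled on other neuronal genes, a comparison chosen after the data had been seen, 0 of the 35 were lower. On that scale 0.293% of all tested genes were lower and 42.2% higher. The scaling removes any shift that the members share with those genes, so this count cannot show whether the members fell.

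Total RNA of the whole cochlea was sequenced from wild-type mice (WT1 to WT4) and from mice with a homozygous deletion of miR-29a in the whole body (KO1 to KO4). Both groups were bred from heterozygous parents on a C57BL/6 background, and both sexes were used. The series record gives an age of 21 days for both groups, whereas the methods of the study give an older age. The labels do not say whether each library came from a separate animal, so p-values measure only the spread between these libraries. Expression is in FPKM, fragments counted per transcript length and per mapped fragments of the library. The deletion itself could not be checked, since miR-29a was not analysed here.

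The cell bodies of spiral ganglion neurons lie in the bony core of the cochlea. Most are myelinated type I neurons that contact inner hair cells and receive glutamate through AMPA receptors, and a minority are thin type II neurons that contact outer hair cells and express peripherin. BDNF and neurotrophin-3, acting through their receptors TrkB (Ntrk2) and TrkC (Ntrk3), keep these neurons alive, and fast sodium and potassium channels let them fire in time with sound. MicroRNAs such as miR-29a bind matching sites in the 3′-UTR of mRNAs through their seed and lower the amount or the translation of those mRNAs. Several members are not exclusive to these neurons: parvalbumin is also abundant in fast muscle, calretinin, calbindin and Gata3 also occur in hair cells or other cochlear cells, peripherin and tyrosine hydroxylase occur in sympathetic neurons, and most synaptic and filament genes are used by neurons in general.

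The mature miR-29a-3p and every match to its seed in the longest annotated 3′-UTR of the members are shown because they are the letters through which the deleted microRNA could pair with these mRNAs. The miRNA sequence and its position are from RefSeq (GRCm38.p6, chr6:31062673-31062694, minus strand), with the seed, bases 2 to 8, in capitals. The sites are from GENCODE on GRCm38, written 5′ to 3′ on the strand of the gene, with the match to the seed in capitals and the coordinates of the match.
miR-29a-3p: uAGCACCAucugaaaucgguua
Stmn2, chr3:8560743-8560749, plus strand: cagtagacagtctaTGGTGCTa
Syt2, chr1:134749791-134749797, plus strand: tttctgtgcaatctTGGTGCTt
Kcna2, chr3:107108304-107108310, plus strand: tcctttgtgggaggTGGTGCTg
Kcnc1, chr7:46430129-46430135, plus strand: actgtgtcaggattTGGTGCTc
Kcnc1, chr7:46430555-46430561, plus strand: tttcccttgctgttTGGTGCTg
Ntrk3, chr7:78188865-78188871, minus strand: tagtgcagtacttcTGGTGCTa
Lypd1, chr1:125872663-125872669, minus strand: gctgcgggctgagcTGGTGCTg
Pou4f1, chr14:104463245-104463251, minus strand: taggtcatgggaacTGGTGCTc
Only the sense strand was searched, for the letters TGGTGCT. They occurred 8 times in 7 of the 35 members (20%), with a pair of sites in Kcnc1, and in 2294 of the 14832 tested genes with an annotated 3′-UTR (15.5%). The median 3′-UTR was 1477 bases long in the members and 1181 bases in the tested genes. In Stmn2 and Ntrk3 the base after the match was an A. A match is a description of the letters and not of binding.

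The totals of the FPKM columns ranged from 249221 to 288695. The table holds no counts, and the depth of the libraries relative to WT2, read from the steps of values under 0.1 FPKM, lay between 0.971 and 1.19. WT1 stood apart from the other libraries. Its correlation with the other WT libraries over log2 values was 0.725 to 0.821, against 0.852 to 0.920 with the KO libraries, and 7.09% of its total FPKM came from the single gene Gm8797, which took at most 0.0918% in any other library. For this reason the comparison is given with and without WT1. WT3 was also set apart, at 0.725 (with WT1) to 0.920 with the other WT libraries and 0.822 to 0.897 with the KO libraries. It held the least RNA of 11 marrow genes (495 FPKM summed) and was kept when WT1 was left out.

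Summed over the 35 genes, expression was 851, 2002, 2751 and 2274 FPKM in WT1 to WT4 and 1523, 2061, 1989.5 and 1975 FPKM in KO1 to KO4. WT1 held 36.3% of the mean of the other WT libraries, and the KO mean was 80.6% of it. WT1 was the lowest of all libraries for every member but Nefh, Scn8a, Th and Stmn2, at 12.6% (Slc17a7) to 109% (Stmn2) of the mean of WT2 to WT4. Within the KO group, KO1 was the lowest library for 27 of the 35 genes. WT3 was the highest library for 16 of them. In whole-tissue RNA, fewer neurons and less RNA per neuron cannot be told apart.

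**Figure D1:**
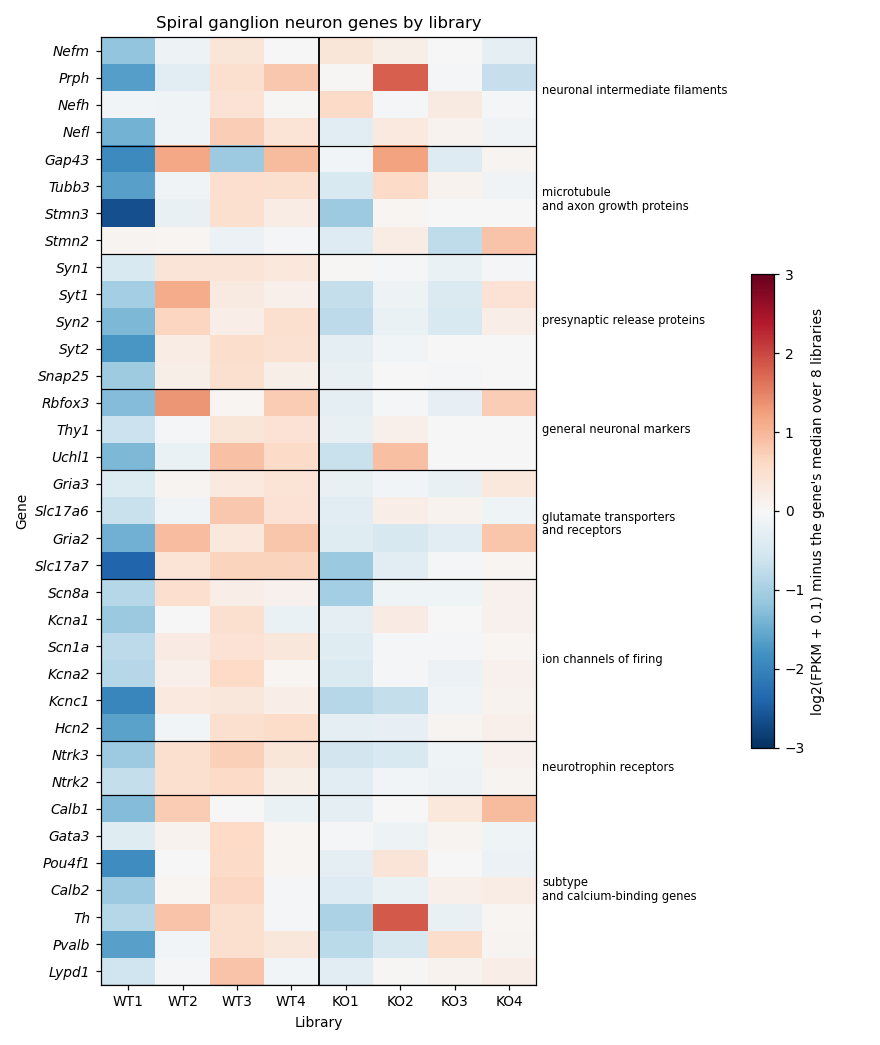
The plot shows the 35 spiral ganglion neuron genes (rows, grouped by role) in the 8 libraries (columns). Colour gives log2(FPKM + 0.1) minus the median of the gene over the 8 libraries, from blue (lower) to red (higher). The WT1 column is the lowest for 31 of 35 genes, and Prph and Th stand out as high in KO2.

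To ask whether loss of miR-29a changed these genes, KO and WT were compared with limma on log2(FPKM + 0.1) over the 14990 genes with a mean of at least 0.5 FPKM. All 35 members passed that limit. At an unadjusted two-sided p under 0.05, 0 of 35 members differed in either direction, beside 767 (5.12%) of all tested genes. With adjustment over all genes, 0 members and 0 genes (0.0%) passed. The groups were fully separated for 0 members, beside 525 (3.5%) of the tested genes. The median log2 fold change (KO minus WT) was -0.01 over the members and 0.10 over all tested genes, with 18 members below 0 and 17 above. With median-ratio scaling of the libraries, 1 member, Syn1, was lower, beside 2.41% of all tested genes. The smallest p among the members as deposited belonged to Syn1 (p = 0.295), and the exact two-sided permutation p of single members ranged from 0.343 to 1, where 0.0286 is the smallest value that 4 against 4 libraries can give.

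The neuronal intermediate filaments, the struts of large axons, had fold changes above 0 in 4 of 4 genes and no call, with 3 of 4 above 0 under median-ratio scaling of the libraries and 2 of 4 under quantile normalization. Nefm, the medium neurofilament subunit, measured 52.5, 106, 153 and 121 FPKM in WT1 to WT4 and 153, 134, 117 and 98.8 FPKM in KO1 to KO4. WT1 was low by itself and KO1 shared the highest level with WT3. The fold change was 0.30 (SE 0.32, adjusted p = 0.968, exact permutation p = 0.543). Prph, which encodes peripherin, measured 6.88, 17.3, 30.5 and 38.6 FPKM in WT1 to WT4 and 22.5, 75.9, 21.3 and 13.6 FPKM in KO1 to KO4. KO2 exceeded every other library, the rest of the KO values lay within the WT range, and the fold change was 0.45 (SE 0.64, adjusted p = 0.977, exact permutation p = 0.571). The heavy subunit Nefh, which supports the calibre of myelinated axons, was the most even of the 4 genes, between 87.4 (WT2) and 140.2 FPKM (KO1). The light subunit Nefl ranged from 51.5 (WT1) to 231 FPKM (WT3). The listed interval of Nefl lies within that of Nefm on the opposite strand, and the sources used here do not say whether strand was used in counting.

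Relative to Nefl, Nefh gave a ratio of 1.73, 0.687, 0.552 and 0.519 in WT1 to WT4 and 1.29, 0.544, 0.762 and 0.718 in KO1 to KO4. It was above 1 in WT1 and KO1 and below 0.8 in the other libraries, and Nefl was the lowest of its group in both WT1 and KO1. The ratio of Nefm to Nefl was likewise highest in KO1 (1.41) and WT1 (1.02), with 0.655 to 0.836 in the others. The groups overlapped for both ratios.

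The 4 genes of microtubules and axon growth had fold changes of 0.00 to 0.44 and no call, and Stmn2 turned below 0 under either other scaling. Gap43, a growth cone protein, was the second lowest member at 0.775, 7.34, 1.45 and 6.25 FPKM in WT1 to WT4 and 3.04, 7.61, 2.44 and 3.40 FPKM in KO1 to KO4. The WT libraries split into a low pair (WT1 and WT3) and a high pair, the KO values spread across the gap, and the fold change was 0.44 (SE 0.71, adjusted p = 0.982, exact permutation p = 0.629). Tubb3, the neuron-specific β-tubulin, measured 25, 71.5, 109 and 108 FPKM in WT1 to WT4 and 55.6, 114, 82.7 and 71.1 FPKM in KO1 to KO4. WT2 to WT4 and KO2 to KO4 shared one range, KO1 and WT1 lay below it, and the fold change was 0.20 (SE 0.47, adjusted p = 0.983, exact permutation p = 0.771). Stmn3, a microtubule-destabilizing protein, ranged from 21.7 (WT1) to 189 FPKM (WT3), with 63.7 in KO1 and 134 to 139.6 in the other KO libraries. Its relative Stmn2, which carries a seed match, was the one member with WT1 above the mean of WT2 to WT4. It measured 18.8, 18.6, 15.7 and 17.1 FPKM in WT1 to WT4 and 13.6, 20.8, 10.4 and 32.3 FPKM in KO1 to KO4, the KO values spread on both sides of the narrow WT range, and the fold change was 0.00 (SE 0.32, adjusted p = 0.999, exact permutation p = 1).

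Among the presynaptic release genes, 4 of 5 fold changes were below 0, and 5 of 5 under either other scaling. Syn1 (synapsin I, a vesicle-clustering protein, chrX:20860511-20921004) measured 16.2, 28.8, 28.7 and 27.3 FPKM in WT1 to WT4 and 22.5, 21.6, 19.1 and 21.1 FPKM in KO1 to KO4. All KO values lay below WT2 to WT4 and above WT1, giving means of 25.3 ± 6.10 FPKM in WT and 21.1 ± 1.47 FPKM in KO (SD, n = 4) and a fold change of -0.22 (SE 0.20, adjusted p = 0.96, exact permutation p = 0.343). Its interval overlaps that of Timp1 on the opposite strand (5.56 FPKM on average). Syt1, a calcium sensor of transmitter release (chr10:108497650-109010982), measured 8.45, 37.3, 20.8 and 19.1 FPKM in WT1 to WT4 and 10.4, 15.3, 12.8 and 23.2 FPKM in KO1 to KO4. WT2 and KO4 were the highest libraries of their groups, the groups overlapped, and the fold change was -0.35 (SE 0.43, adjusted p = 0.973, exact permutation p = 0.514). Syn2, the synapsin II gene (chr6:115134902-115282006), was likewise highest in WT2 and in KO4, with 4.88, 19.8, 14.6 and 17.6 FPKM in WT1 to WT4 and 7.29, 11, 9.26 and 14.6 FPKM in KO1 to KO4.

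Syt2, the fast calcium sensor of auditory synapses (chr1:134646677-134803171), carries a seed match and measured 15.8, 61.6, 75.4 and 72 FPKM in WT1 to WT4 and 43.1, 49.9, 52.2 and 53.2 FPKM in KO1 to KO4. The KO libraries formed a tight range between WT1 and the other WT libraries, and the fold change was 0.04 (SE 0.46, adjusted p = 0.994, exact permutation p = 1). Snap25, a core protein of the vesicle fusion machinery, was the most abundant of the 35 genes, with 121, 289, 357 and 287 FPKM in WT1 to WT4 and 218, 253, 248 and 254 FPKM in KO1 to KO4. Its KO values also sat between WT1 and the other WT libraries, and the means were 263 ± 100.1 FPKM in WT and 243 ± 17.2 FPKM in KO (SD, n = 4). Part of the Syt2 interval is shared with Ppp1r12b on the opposite strand, which had 21.6 FPKM on average.

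The general neuronal markers gave no call. Rbfox3, which encodes the nuclear marker NeuN, measured 4.21, 26.8, 11.1 and 18 FPKM in WT1 to WT4 and 8.70, 10.1, 8.97 and 17.7 FPKM in KO1 to KO4. It was highest in WT2, WT4 and KO4, the groups overlapped, and the fold change was -0.18 (SE 0.52, adjusted p = 0.983, exact permutation p = 0.771). Thy1, a surface glycoprotein of neurons, measured 37.6, 56.1, 75.8 and 79 FPKM in WT1 to WT4 and 50.1, 65.5, 59.3 and 58.2 FPKM in KO1 to KO4, with a fold change of -0.04 (SE 0.24, adjusted p = 0.99, exact permutation p = 0.943). Uchl1, a ubiquitin hydrolase of neuronal cell bodies, ran from 45.5 (WT1) to 217 FPKM (KO2), with WT3 at 216.

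The genes of glutamate transport and reception were below 0 in 4 of 4 cases under each scaling, again with no call over the 8 libraries. Slc17a7 (VGLUT1, which loads glutamate into vesicles, chr7:45163949-45176142) measured 7.96, 56.2, 67.3 and 66.3 FPKM in WT1 to WT4 and 19.4, 33.1, 40.5 and 43.6 FPKM in KO1 to KO4. WT2 to WT4 were close together and above all KO libraries, and WT1 was below all of them. The means were 49.5 ± 28.1 FPKM in WT and 34.2 ± 10.8 FPKM in KO (SD, n = 4), with a fold change of -0.21 (SE 0.67, adjusted p = 0.985, exact permutation p = 0.8). Slc17a6 (VGLUT2) measured 11.7, 17.3, 32.8 and 25.2 FPKM in WT1 to WT4 and 14.9, 21.6, 20.2 and 17 FPKM in KO1 to KO4, and its fold change was -0.15 (SE 0.30, adjusted p = 0.983, exact permutation p = 0.686). The AMPA receptor gene Gria3 measured 8.76, 12.5, 14.4 and 15.6 FPKM in WT1 to WT4 and 10.1, 11, 10.1 and 14.5 FPKM in KO1 to KO4. KO4 lay among the higher WT libraries, and the fold change was -0.15 (SE 0.21, adjusted p = 0.977, exact permutation p = 0.571). Gria2 (chr3:80681450-80802835), which encodes the subunit that limits calcium entry, measured 3.04, 15.9, 10.4 and 15 FPKM in WT1 to WT4 and 6.52, 5.92, 6.74 and 14.9 FPKM in KO1 to KO4. KO1 to KO3 were alike and KO4 lay within the range of WT2 to WT4. The ratio of Slc17a7 to Slc17a6 was 0.680, 3.25, 2.05 and 2.63 in WT1 to WT4 and 1.30, 1.53, 2.01 and 2.56 in KO1 to KO4, lowest in WT1, and the groups overlapped.

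The ion channels of firing gave no call over the 8 libraries. Scn8a, the sodium channel of the nodes and spike initiation zones, measured 13.2, 34.5, 28 and 26.3 FPKM in WT1 to WT4 and 11.9, 21.9, 22.3 and 26.5 FPKM in KO1 to KO4, with KO1 below WT1 and a fold change of -0.28 (SE 0.34, adjusted p = 0.973, exact permutation p = 0.486). Scn1a, a related sodium channel gene (chr2:66270778-66477186), measured 7.77, 16.1, 18.4 and 17.2 FPKM in WT1 to WT4 and 10.5, 13.1, 13.1 and 14 FPKM in KO1 to KO4. Its KO range lay wholly between WT1 and the other WT libraries. Kcnc1, a fast-repolarizing potassium channel gene (chr7:46396497-46438704) with a pair of seed matches, measured 9.52, 45.5, 46.8 and 42.7 FPKM in WT1 to WT4 and 20.6, 22.5, 34.5 and 39.8 FPKM in KO1 to KO4. KO1 and KO2 were in the gap between WT1 and WT2 to WT4, and KO3 and KO4 were closer to the latter. Hcn2, a channel opened by hyperpolarization, ranged from 10.2 (WT1) to 45.6 FPKM (WT4), with KO values of 25.2 to 34.4.

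The low-threshold potassium channel genes Kcna1 (chr6:126640397-126646384) and Kcna2 (chr3:107101146-107115005), whose products join in one channel and limit repetitive firing, had fold changes on opposite sides of 0 over the 8 libraries under all 3 scalings, and both were below 0 without WT1. Kcna1 measured 32.9, 70.1, 98.1 and 61.9 FPKM in WT1 to WT4 and 58.8, 84.1, 71.7 and 77.4 FPKM in KO1 to KO4, with a fold change of 0.24 (SE 0.31, adjusted p = 0.974, exact permutation p = 0.629). Kcna2, which carries a seed match, measured 25.4, 51.6, 69.4 and 47.8 FPKM in WT1 to WT4 and 33.8, 44.3, 40.4 and 50.4 FPKM in KO1 to KO4, with a fold change of -0.13 (SE 0.29, adjusted p = 0.983, exact permutation p = 0.714). The ratio of Kcna1 to Kcna2 was 1.30, 1.36, 1.41 and 1.29 in WT1 to WT4 and 1.74, 1.90, 1.77 and 1.54 in KO1 to KO4. Every KO library exceeded every WT library, WT1 included, with a WT mean of 1.34 ± 0.0569 and a KO mean of 1.74 ± 0.150 (SD, n = 4 each). The pair was chosen after its values had been seen, so the ratio is a description with no test. Of all 595 pairs of members, 8 (1.34%) had ratios that did not overlap between the groups. Among all divisions of the libraries into 4 and 4, the share that separates a given ratio fully is 0.0286, which is above 1.34%. The pairs share genes and are not independent. Kcna1 was also in such pairs with Scn1a, Ntrk2 and Ntrk3, so the separation was not particular to Kcna2. The share among pairs of other genes was not computed.

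Both neurotrophin receptor genes had fold changes below 0 under each scaling. Ntrk3 (TrkC, chr7:78175959-78738012), which carries a seed match followed by an A, measured 10.1, 30.1, 35.5 and 27.5 FPKM in WT1 to WT4 and 14.6, 15.6, 19.6 and 23.5 FPKM in KO1 to KO4. All KO values lay between WT1 and the other WT libraries, the means were 25.8 ± 11 FPKM in WT and 18.3 ± 4.07 FPKM in KO (SD, n = 4), and the fold change was -0.37 (SE 0.38, adjusted p = 0.968, exact permutation p = 0.457). Ntrk2 (TrkB, chr13:58806569-59133970), which has no match, measured 19.4, 44.4, 48.1 and 36.4 FPKM in WT1 to WT4 and 25.2, 30.1, 28.8 and 34 FPKM in KO1 to KO4 and showed the same arrangement, with a fold change of -0.25 (SE 0.28, adjusted p = 0.968, exact permutation p = 0.457). TrkB is also made by glial cells, so its level is not one of neurons alone.

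The subtype and calcium-binding genes showed no call and no shared direction, with 5 of 7 above 0 as deposited and 2 of 7 under either other scaling. Calb1 (calbindin) measured 7.02, 29.7, 17.5 and 15.1 FPKM in WT1 to WT4 and 14.1, 17.3, 21.8 and 33.9 FPKM in KO1 to KO4, highest in KO4 and WT2, with a fold change of 0.43 (SE 0.43, adjusted p = 0.968, exact permutation p = 0.457). Gata3, a transcription factor of the developing ear and its neurons, measured 8.67, 11.9, 16.8 and 11.6 FPKM in WT1 to WT4 and 10.7, 10.05, 11.8 and 10.2 FPKM in KO1 to KO4, with a fold change of -0.16 (SE 0.20, adjusted p = 0.973, exact permutation p = 0.571). Calb2 (calretinin), the second most abundant member, ranged from 89.97 (WT1) to 292 FPKM (WT3). Pou4f1, a sensory neuron transcription factor with a seed match, ranged from 1.25 to 7.27 FPKM in the same libraries, and Lypd1, a marker of 1 type I subtype that also carries a match, from 16.9 to 46.4. Pvalb (parvalbumin) measured 46.7, 136, 202 and 182 FPKM in WT1 to WT4 and 82.4, 104, 209 and 154 FPKM in KO1 to KO4. It was highest in KO3, the library in which 10 skeletal muscle genes summed to 351 FPKM against at most 39.3 in any other, and the part of muscle RNA in that value was not tested.

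Th (tyrosine hydroxylase), a marker of type II neurons and of sympathetic neurons, was the lowest member, at 0.501, 1.86, 1.41 and 0.945 FPKM in WT1 to WT4 and 0.468, 3.80, 0.832 and 1.04 FPKM in KO1 to KO4. KO2 was the highest library for Th, as it was for Prph, and the groups overlapped for both. The defining noradrenergic genes were near 0: Dbh reached 0.279 FPKM in KO2 and at most 0.0718 in the others, Slc6a2 stayed at or below 0.155, and Hand2 was listed at 0 in all libraries.

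**Figure D2:**
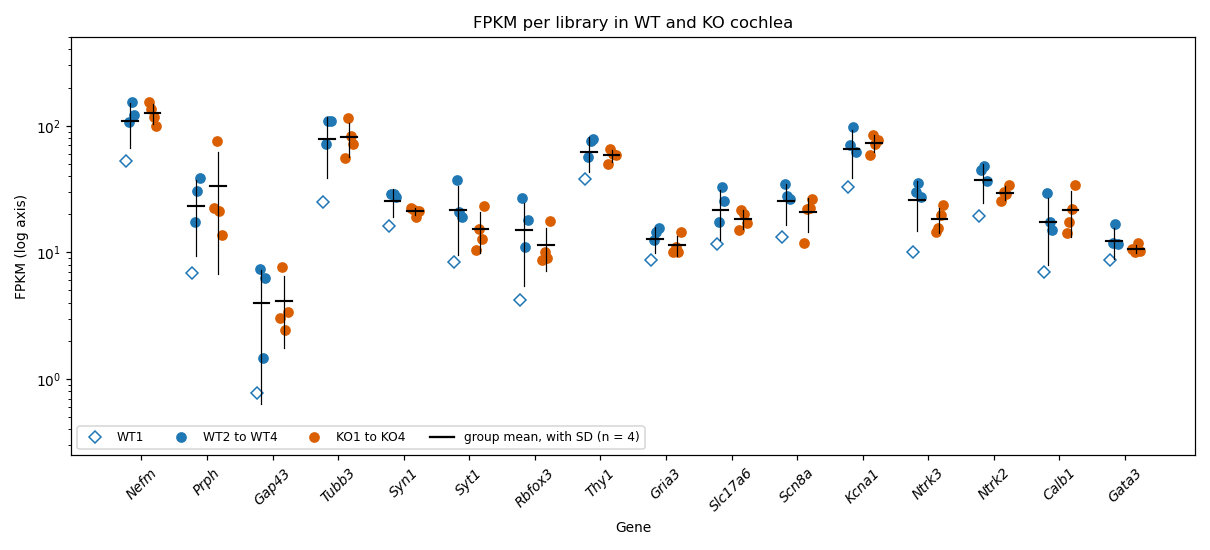
FPKM per library (log axis) is shown for the 2 members of each role group with the smallest p over the 8 libraries. Open diamonds are WT1, blue points WT2 to WT4 and orange points KO1 to KO4, and black lines give the group mean and SD (n = 4). The WT1 diamond lies below all KO points for 15 of the 16 genes, the exception being Scn8a, where KO1 is lower.

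Leaving out WT1 changed the sign of 14 of the 35 fold changes, over 15019 tested genes. WT1 was the lowest library for 31 members, so leaving it out raises their WT mean and favours fold changes below 0. Without WT3 instead, the highest library for 16 members, 0 were called and the median log2 fold change was 0.15. Without WT1, 10 of the 35 members were lower in KO at an unadjusted p under 0.05, beside 1112 (7.4%) of all tested genes, and 0 were higher. Calls in either direction covered 2922 (19.5%) of all tested genes. With median-ratio scaling as well, 12 members were lower, beside 8.75% of all tested genes. Without WT1 and as deposited, no member and no gene passed adjustment, and the lowest adjusted p among the members was 0.145. The median log2 fold change fell to -0.37 over the members, beside -0.02 over all tested genes, and 32 of 35 members were below 0, Nefh, Calb1 and Stmn2 being the exceptions. All KO values lay below WT2 to WT4 for 8 members (Snap25, Syt2, Syn1, Slc17a7, Scn1a, Kcnc1, Ntrk2 and Ntrk3), beside 1077 (7.17%) of the tested genes.

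The 10 genes came from 4 of the 8 role groups. Slc17a7 fell furthest, with a log2 fold change of -0.95 (SE 0.26, adjusted p = 0.148). Of the trophic receptors, Ntrk3 was at -0.77 (SE 0.18, adjusted p = 0.145) and Ntrk2 at -0.54 (SE 0.14, adjusted p = 0.148). Of the release genes, Syn1 changed by -0.42 (SE 0.10, adjusted p = 0.145) and Syt2 by -0.49 (SE 0.13, adjusted p = 0.147), and Syn2 and Syt1 by -0.74 (adjusted p = 0.16) and -0.73 (adjusted p = 0.248). The channels Kcnc1 and Scn1a changed by -0.67 (adjusted p = 0.183) and -0.45 (adjusted p = 0.148), and the receptor subunit Gria2 by -0.77 (adjusted p = 0.245). No filament, axon growth, general or subtype gene was called. By group, the median without WT1 was -0.66 for the neurotrophin receptors, -0.59 for the glutamate genes, -0.49 for release, -0.43 for the channels, -0.37 for the general markers, -0.24 for the subtype genes, -0.20 for axon growth and -0.03 for the filaments.

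**Figure D3:**
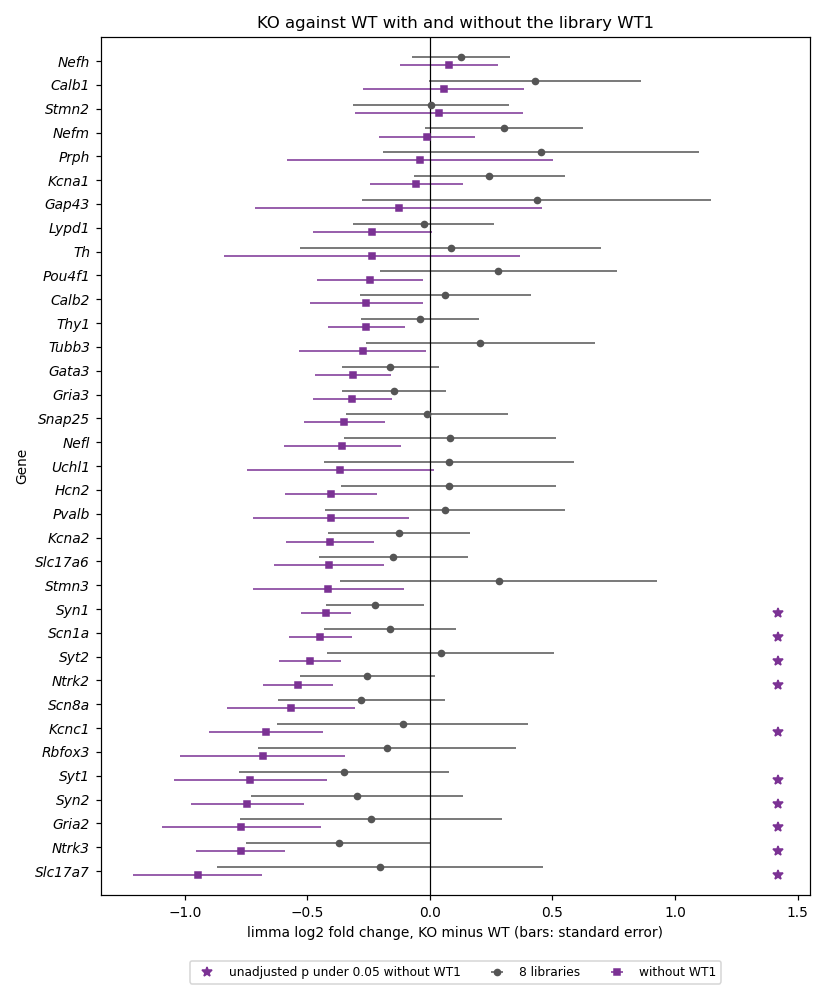
Log2 fold changes (KO minus WT) of the 35 members from limma, with standard errors, are plotted for all 8 libraries (grey circles) and without WT1 (purple squares). Stars mark the 10 genes with an unadjusted p under 0.05 without WT1. Leaving out WT1 moves the median from -0.01 to -0.37.

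A list of 35 other neuronal genes, none of them a member, was read beside the members. Its sum was 673, 1634, 1876 and 1824 FPKM in WT1 to WT4 and 1112, 1383, 1336 and 1546 FPKM in KO1 to KO4, with WT1 at 37.9% and the KO mean at 75.6% of the mean of WT2 to WT4. Over the 8 libraries 0 of its 35 genes were called and the median was -0.07. Without WT1, 14 fell and 0 rose, with a median of -0.42. The smallest p values were those of Elavl3, a neuronal RNA-binding protein (log2 fold change -0.58, adjusted p = 0.148), Nsg2, an endosomal protein of neurons (-1.10, adjusted p = 0.148), and Sv2a, a synaptic vesicle protein (-0.78, adjusted p = 0.148).

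When the libraries were shifted to the same mean level of these other neuronal genes and WT1 was left out, a comparison chosen after the data had been seen, 0 of the 35 members were lower and 0 higher. On that scale 44 (0.293%) of all tested genes were lower and 6333 (42.2%) higher, and the median was 0.09 over the members and 0.43 over all tested genes. Because the scaling takes out a shift shared with the other neuronal genes, these counts cannot show whether the members fell. The member nearest to a call was Slc17a7, at -0.49. Ntrk3 was at -0.32, and Syn1 at 0.03.

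Markers of other cells differed between the same libraries. The 12 Schwann cell and myelin genes summed to 788, 1583, 2556 and 1515 FPKM in WT1 to WT4 and 1261, 1523, 1419 and 1562 FPKM in KO1 to KO4, with WT1 lowest for 9 of them, and 0 were called over the 8 libraries. Without WT1, Mag (-0.75, adjusted p = 0.148) and Mbp (-0.41, adjusted p = 0.223), both genes of myelin membranes, fell. The 8 genes listed for central glia summed to 72.2 FPKM in WT1, 158 to 281 in WT2 to WT4 and 101 to 175 in KO. Whether their RNA came from central tissue was not tested. Of the 7 that passed the limit, 5 fell without WT1, with the smallest p for Aqp4, Slc1a2 and Olig1 (log2 fold changes of -0.83, -0.94 and -0.84). The 12 hair cell genes gave 0 calls with or without WT1 and summed to 32.7 FPKM in WT1, 40.0 to 53.6 in WT2 to WT4 and 30.1 to 44.1 in KO.

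Genes of central neurons were unevenly spread. The 8 genes summed to 2.64, 96.6, 13.5 and 43.8 FPKM in WT1 to WT4 and 8.46, 8.28, 16.2 and 63 FPKM in KO1 to KO4. Gabra6 and Zic1, both used by cerebellar granule cells, were at 23.6 and 43.9 FPKM in WT2 and at 16.4 and 25.9 in KO4, while Gabra6 was listed at 0 in WT1 and the forebrain gene Neurod6 stayed at or below 0.271. Of the 35 members, 6 (Syt1, Syn2, Rbfox3, Gria2, Scn8a and Calb1) were highest in exactly these libraries, in WT2 among WT and in KO4 among KO. KO4 was the highest KO library for 19 of the 35 members and WT2 the highest WT library for 9. How many of all genes peaked in both was not counted. The part of central RNA in the values of these 6 genes was not tested.

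Marrow RNA ran the other way. The 11 granulocyte and erythroid genes summed to 16615, 2965, 495 and 4405 FPKM in WT1 to WT4 and 9569, 10583, 16762 and 6426 FPKM in KO1 to KO4, so WT1 and every KO library held more than any of WT2 to WT4. One of the 11, the globin gene Hbb-bt, was called over the 8 libraries with a log2 fold change of 1.83 (SE 0.79, adjusted p = 0.947), and 11 of 11 rose without WT1, with the smallest p for the granule gene Ltf (2.09, adjusted p = 0.145). The 6 osteoblast genes summed to 497, 229, 40.1 and 219 FPKM in WT1 to WT4 and 394, 395, 360.3 and 238 FPKM in KO1 to KO4. Over the 8 libraries 0 were called, and 3 rose without WT1 (Ibsp, Phex and Dmp1). FPKM are shares of a whole, and the part that marrow and bone RNA had in the levels of the members was not tested. The 3 genes of spiral ligament fibrocytes summed to 1287 to 2011 FPKM, with WT1 (1613) inside that range, and Otor alone fell without WT1 (adjusted p = 0.148). Among the 10 muscle genes, Mylpf was called higher in KO with and without WT1 (log2 fold changes of 2.48 and 2.64), at 43.5 FPKM in KO3 and at most 4.52 elsewhere.

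**Figure D4:**
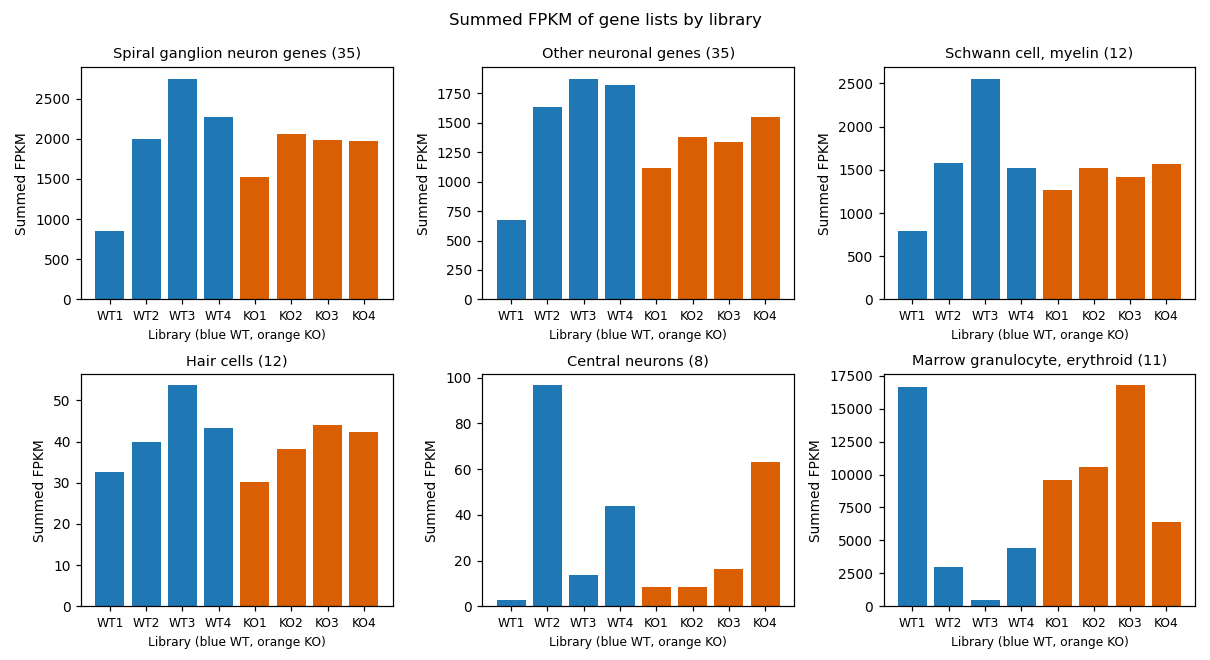
Bars give the summed FPKM of 6 gene lists in each library (blue WT, orange KO), each on its own linear axis from 0. The 35 members, the other neuronal genes and the Schwann cell genes are lowest in WT1, the central neuron genes peak in WT2 and KO4, and the marrow genes are high in WT1 and KO3.

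Other genes of the same pathways were read beside the members. Of 24 further channel genes, 0 were called over the 8 libraries and 9 fell without WT1, with a median of -0.57. The smallest p belonged to the sodium channel Scn3a, the KCNQ channel Kcnq3 and the pacemaker channel Hcn3 (log2 fold changes of -0.99, -0.58 and -0.83). Of 7 further glutamate receptor genes that passed the limit, 0 were called over the 8 libraries, and Grik5, Gria4 and Grik2 fell without WT1 (log2 fold changes of -0.50, -0.80 and -1.42). Of 5 further neurotrophin genes, 0 were called either way. The ligand gene Bdnf measured 0.504, 1.80, 1.93 and 1.66 FPKM in WT1 to WT4 and 1.09, 1.51, 1.49 and 2.07 FPKM in KO1 to KO4. Of 11 further subtype genes, 0 were called over the 8 libraries. Without WT1, Prox1, a transcription factor of type I neurons, fell (-0.54, adjusted p = 0.179), and Runx1, which is also a blood cell factor, rose (0.90, adjusted p = 0.145).

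The members with a seed match (Stmn2, Syt2, Kcna2, Kcnc1, Ntrk3, Lypd1 and Pou4f1) had a median log2 fold change of -0.03 over the 8 libraries, beside 0.02 in the 28 members without one, and 3 of the 7 were above 0. Without WT1 the medians were -0.41 and -0.36. None of the 7 was called higher in KO in either comparison. Without WT1, 3 of the 7 with a match (Syt2, Kcnc1 and Ntrk3) and 7 of the 28 without one were called lower.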

How the data were processed

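Strand-specific libraries were made by the authors from total RNA of the cochlea after removal of ribosomal RNA, the paired-end reads were mapped with Hisat2, and FPKM per gene and library were deposited. The tool and annotation behind the deposited FPKM are not given in the sources used here. The labels list the genome build mm9, but 32 of the 35 members have the coordinates of GENCODE M21 (GRCm38), which was used for coordinates and 3′-UTRs. No further scaling was applied to the values, 27 symbols that had turned into dates were restored from their identifiers, and 0 sample columns were left unused.

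The log2(FPKM + 0.1) values of genes with a mean of at least 0.5 FPKM were fitted over the whole table with limma 3.58.1 (R 4.3.3, variance trend, genotype as the only factor). A call was an unadjusted two-sided p under 0.05, as in the study, with Benjamini-Hochberg adjusted p over all tested genes beside it. Because FPKM carry no counts, a count test was not run, and no counting interval could be given. The fit was run on simulated data with known changes and with noise drawn separately for each gene and library. A shift shared by many genes of a library, as in WT1, was not simulated, so that run does not cover it. Single values used exact two-sided permutation tests (pandas 2.3.3, scipy 1.17.1, Python 3.11.15).

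The members and all gene lists were chosen with earlier results of these data known. All members were accounted for, and the 2 with the smallest p in each of 8 role groups, together with any member called or not overlapping, were described in every library. From each of 14 other lists, called genes were named, up to the 3 with the smallest p. The other members shown in every library were chosen after their values were seen. The alternatives were another pseudocount, other filters, median-ratio scaling, quantile normalization, no variance trend, a replicate block, 3 libraries a group and leaving out each library, and 3 more were added after seeing the data. The values of some single genes of these lists are not reported here.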

Additional observations from a re-analysis of the deposited data

Results flagged for a closer look

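A library was marked where its gap to the nearest library of its group, divided by the range of the group on the log2 scale, exceeded the critical value of Dixon's test, which chance gives in about 1 in 20 groups. Among the 70 groups of 4 values (35 members in WT and KO), 8 were marked, where 3.5 would be expected if the groups were independent, which they are not. WT1 lay far below the other WT libraries for Syt2 (0.870), Syn1 (0.906), Slc17a7 (0.915), Scn1a (0.850) and Kcnc1 (0.943). KO1 lay far below the other KO libraries for Stmn3 (0.948) and Snap25 (0.840), and KO4 lay far above them for Gria2 (0.861).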

How the results depend on the processing

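With WT1 included, 0 members were called lower or higher and 0 passed adjustment with a pseudocount of 1, no filter, a minimum mean of 1 FPKM, quantile normalization, no variance trend, 3 libraries a group (replicates 1 to 3, so 6 libraries) and scaling on the other neuronal genes. With median-ratio scaling 1 member, Syn1, was lower, beside 2.41% of all tested genes. Leaving out single libraries gave 0 to 10 members called lower, the 10 without WT1 and 0 in each other case, and 0 higher, with medians from -0.37 (without WT1) to 0.15. Without WT1 and with median-ratio scaling, chosen after seeing the data, 12 members were lower, Scn8a and Kcna2 joining the 10, beside 8.75% of all tested genes. Syt2 was the only called gene whose sign turned, to -0.49 without WT1 and to -0.48 with median-ratio scaling as well, while leaving out any other library gave it 0.26 at the highest. The cause was not tested. The replicate numbers shared by WT and KO libraries were also fitted as a replicate block, with 0 calls and a median of -0.01, but the numbers do not pair the libraries (the deviations of same-numbered libraries correlated at 0.419, -0.24, -0.17 and 0.21). Scaling moved the median of all genes from 0.10 to 0.00 (median ratio) or -0.04 (quantile), and 26 or 27 of the 35 members were then below 0, against 18 in the values as deposited. Depth could be read only relative to another library, so counting error was not available for the low members Th, Gap43 and Pou4f1.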

Other observations

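The following values were picked after they had been seen, and no explanation of them was tested. In KO2, the library with the highest Prph and Th, several genes of the other lists were also at their highest among the 8 libraries. Sncg, a synuclein of sensory neurons, was at 86.3 FPKM there and at 23.4 to 51.4 FPKM elsewhere. Fgf13, a partner of sodium channels, was at 24.4 FPKM against 5.10 to 14.9 FPKM, and Scn9a, a sodium channel of pain-sensing and sympathetic neurons, was at 10.1 FPKM against 1.91 to 6.17 FPKM. Ngfr, the low-affinity neurotrophin receptor, was at 30.0 FPKM against 7.03 to 24.3 FPKM. Neurod1, a transcription factor of young and granule neurons, followed the central neuron genes, with 15.9 FPKM in WT2, 9.38 FPKM in KO4 and 4.80 FPKM in WT4, against 0.112 to 1.86 FPKM in the other libraries.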
